A study of Mus musculus with 28 samples.

Results

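The genes of the basal layer of the epidermis and of its anchoring complex, the hemidesmosome, were followed here through mouse skin after ultraviolet B light (UVB). The 9 genes, chosen by name, were Trp63, Krt5, Krt14, Krt15, Itga6, Itgb4, Col17a1, Lama3 and Lamb3. All 9 were found among the 55573 genes counted in the whole-body experiment and the 57126 genes counted in the keratinocyte experiment, and all 9 passed the filter on low counts in both. Between 0.421% and 1.34% of the counts of a library belonged to them.

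The study concerns Vsir, the gene of the checkpoint receptor VISTA, and measured RNA of whole skin by sequencing in 28 libraries from 12-week-old female mice whose hair was removed 5 days before exposure. The whole-body experiment had 3 libraries in each of KO_UV, KO_NoUV, WT_UV and WT_NoUV. KO mice lack Vsir in all cells, and WT mice are their controls. The keratinocyte experiment had 4 libraries in each of cKO_UV, cKO_NoUV, FL_UV and FL_NoUV. Both of its genotypes carry floxed Vsir, and cKO mice also carry K14Cre, a recombinase driven by the promoter of Krt14, one of the 9 genes, so that deletion is aimed at keratinocytes and spares other cells of the skin. UV groups received 500 mJ/cm2 of UVB and NoUV groups none; the titles place the harvest 3 h after exposure and the treatment protocol 1 day after it. The labels name no strain.

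In normal skin, p63, the product of Trp63, is the transcription factor that maintains the proliferative basal layer, where keratins 5 and 14 form the filament network. At the base of each basal cell the hemidesmosome ties these filaments, through plectin, to the integrin made of Itga6 and Itgb4 and to collagen XVII, and both bind an epidermal laminin in the basement membrane. This laminin holds the products of Lama3 and Lamb3, and loss of any of these structural parts gives blistering skin.

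Most of the transcript sequence of these genes is found in no other gene, with exceptions in Krt5, Krt14 and Itga6. In the GENCODE M21 transcripts, 2.78% of the 100-base stretches of Krt14 also occur in another gene, mostly Krt16, and 2.38% of those of Krt5 occur in Krt6a; Krt6a and Krt16 are keratins of stressed and healing epidermis. For Itga6 the share was 3.71%, mostly in the predicted gene Gm29397, and for the other 6 genes it was 0%. How reads that fit 2 genes were counted is not given in the sources used here. The longest identical run of the coding sequences of Krt14 and Krt16 is shown because it marks where a read cannot be assigned to 1 of these keratins. The capitals mark the identical run, of 134 bases in exon 1 of both genes, and the 15 bases in lower case on each side are flanks.
Krt14: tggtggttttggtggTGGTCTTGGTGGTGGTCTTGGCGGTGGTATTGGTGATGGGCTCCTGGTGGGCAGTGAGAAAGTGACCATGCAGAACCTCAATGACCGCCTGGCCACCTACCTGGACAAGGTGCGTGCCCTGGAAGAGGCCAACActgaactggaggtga
Krt16: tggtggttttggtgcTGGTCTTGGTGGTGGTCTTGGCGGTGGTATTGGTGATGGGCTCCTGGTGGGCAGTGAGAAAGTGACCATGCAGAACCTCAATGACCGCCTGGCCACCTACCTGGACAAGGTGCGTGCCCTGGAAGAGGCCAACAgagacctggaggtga

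Krt14 and Krt16 are both read from the minus strand of chromosome 11. Exons annotated on the opposite strand overlapped 129 exon bases of Krt5, 537 of Itgb4 and 197 of Lama3. Whether strand was used in counting is not given in the sources used here, so reads of such antisense genes may be included.

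In GRCm38, Krt14, Krt15 and Itgb4 share chromosome 11 and the other 6 genes lie each on a chromosome of its own. Trp63 (ENSMUSG00000022510, chromosome 16, 25683763 to 25892102), Lama3 (ENSMUSG00000024421, chromosome 18, 12333819 to 12583013), Lamb3 (ENSMUSG00000026639, chromosome 1, 193207699 to 193343878) and Itga6 (ENSMUSG00000027111, chromosome 2, 71745616 to 71858416) are long genes that span 208.3, 249.2, 136.2 and 112.8 kb. Col17a1 (chromosome 19) spans 45.8 kb and Itgb4 33.7 kb, whereas the 3 keratin genes span 4.2 to 5.8 kb. Values are summed over the exons of a gene and do not separate its isoforms, such as those of Trp63 that start at different promoters.

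Whole-body libraries held 30.5 to 43.8 M counts and keratinocyte libraries 7.12 to 31.1 M, among which FL_NoUV 1 and cKO_UV 3 were the shallowest. Vsir itself had 3.24, 3.76 and 1.98 CPM (scaled counts per 1 M counts) in KO_UV, against 22.0, 20.2 and 23.96 CPM in WT_UV. It fell in KO against WT skin by 2.89 on the log2 scale after UV (adjusted p = 0.000332) and by 2.64 without UV (adjusted p = 0.00047), by edgeR's quasi-likelihood test. In the keratinocyte experiment Vsir averaged 33.8 ± 12.0 CPM in cKO_NoUV and 25.3 ± 8.91 CPM in FL_NoUV (SD, n = 4 each). Counts per gene in whole skin do not separate the deleted exons or the keratinocytes, so they do not check this deletion. WT_NoUV 1 and WT_UV 2 stood apart from the other 10 whole-body libraries in Krt14, as described with the keratins, and results that rest on them are given with and without them.

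Per kb of exon, the 9 genes covered a wide range of levels. In KO_UV skin, Krt5 averaged 894 ± 122, Krt14 639 ± 147, Krt15 273 ± 85.9 and Col17a1 117 ± 13.3 CPM per kb (SD, n = 3). Below them stood Itga6 at 24.8 ± 2.36, Trp63 at 24.7 ± 2.80, Itgb4 at 14.5 ± 3.03, Lama3 at 8.02 ± 0.549 and Lamb3 at 7.20 ± 0.964 CPM per kb. Itga6 and Trp63 in this group, and Lama3 and Lamb3, were neighbours that differed by less than their spread. In FL_NoUV skin the order began in the same way, with Krt5 at 1561 ± 267, Krt14 at 952 ± 367, Krt15 at 158 ± 81.8 and Col17a1 at 147 ± 32.7 CPM per kb (SD, n = 4), the last 2 within their spread. Trp63 stood next at 69.1 ± 11.4 CPM per kb, above Itga6 at 41.1 ± 5.06, Itgb4 at 25.5 ± 4.36, Lama3 at 12.4 ± 1.01 and Lamb3 at 7.43 ± 2.23. WT_NoUV was the only group of the 8 in which mean Krt14, at 1689 ± 1514 CPM per kb (SD, n = 3), exceeded mean Krt5, at 1356 ± 570.3 CPM per kb. This order rested on WT_NoUV 1: in WT_NoUV 2 and 3 Krt14 had 925 and 709 CPM per kb, below the 1165 and 904 CPM per kb of Krt5.

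**Figure D1:**
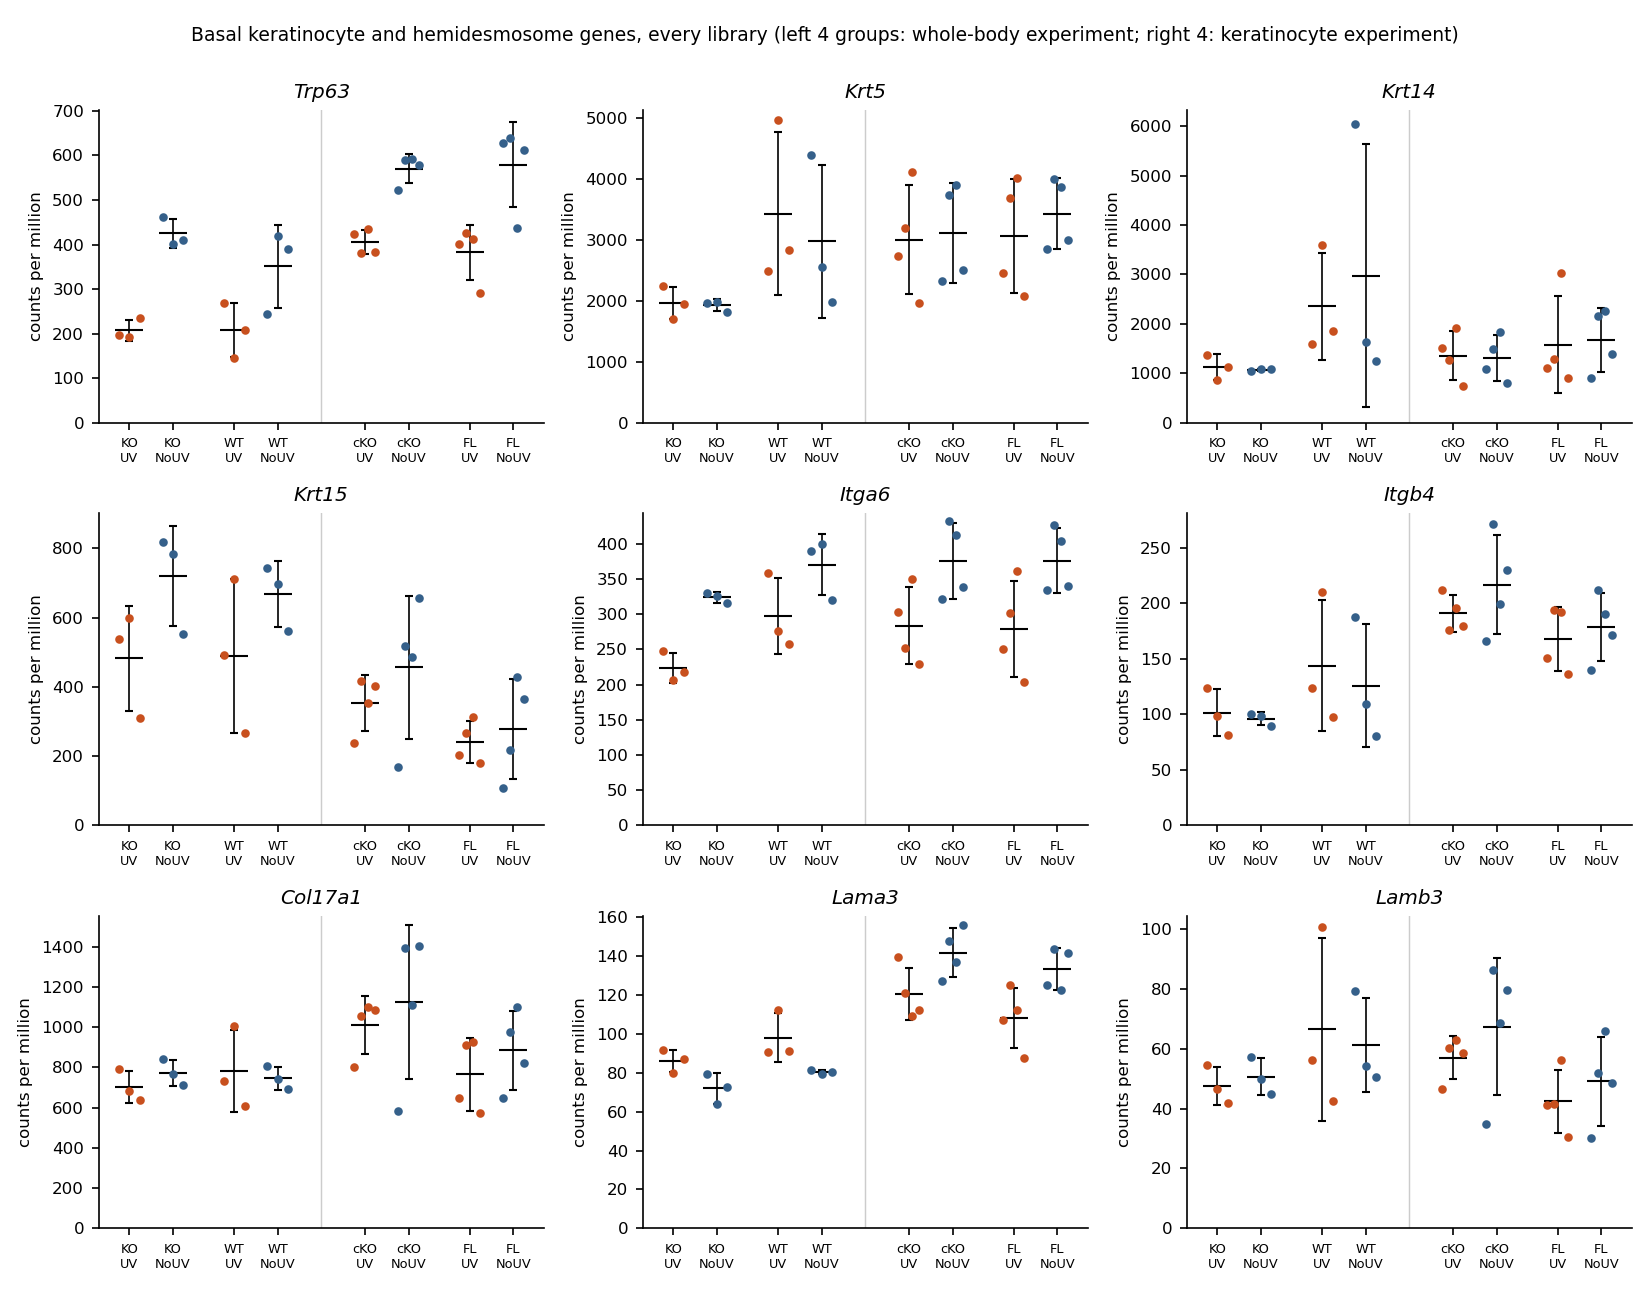
Level of each of the 9 genes in every library, in CPM on a linear axis from 0, by group (orange UV, blue NoUV; bars are mean and SD, n = 3 in the whole-body and n = 4 in the keratinocyte experiment). Trp63 and Itga6 means were lower in the UV group of each genotype, Lama3 means were higher in UV groups of the left 4 and lower in those of the right 4, and WT_NoUV 1 at 6036 CPM stood far above every other library in Krt14.

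The first question was how UV changed these genes. Trp63, the basal transcription factor, fell after UV in all 4 genotypes, and Itga6, the alpha chain of the hemidesmosomal integrin, fell over both genotypes of each experiment. Lama3, the alpha chain of the epidermal laminin, rose slightly in the whole-body experiment and fell slightly in the keratinocyte experiment. The abundant keratins Krt5 and Krt14, the integrin partner Itgb4, and Col17a1 and Lamb3 passed the test in none of these comparisons. In bulk skin, fewer cells of a type and less RNA per cell cannot be told apart. In the whole-body experiment skin site and UV cannot be told apart either, by the Hoxc10 counts given further below. Its UV effects, and their differences from the keratinocyte experiment, are to be read with this limit. In cKO skin Hoxc10 also had only 0 to 2 counts after UV, against 2 to 115 without UV. UV effects in cKO skin, and those over both keratinocyte genotypes, are therefore not free of this limit either.

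Trp63 had 196, 192 and 235 CPM in KO_UV, against 462, 402 and 410.2 CPM in KO_NoUV. In WT skin it had 269, 146 and 208 CPM after UV, against 245, 419 and 389 CPM without UV. The KO groups did not overlap, whereas WT_NoUV 1, at 245 CPM, lay among the UV libraries of WT. By edgeR's quasi-likelihood test, adjusted over all genes tested, Trp63 fell in KO skin (log2 fold change -1.03, SE 0.23, adjusted p = 0.00632) and in WT skin (-0.76, SE 0.23, adjusted p = 0.0344). The call in WT skin was lost without any 1 of WT_NoUV 2, WT_NoUV 3, WT_UV 2 and WT_UV 3 (adjusted p = 0.0707 to 0.115) and in a fit of the 2 WT groups alone (adjusted p = 0.148), while that in KO skin held without each library in turn.

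Across the keratinocyte experiment Trp63 had 422, 381, 435 and 384 CPM in cKO_UV, against 522, 589, 592 and 578 CPM in cKO_NoUV. It had 402, 426, 413 and 291 CPM in FL_UV, against 628, 640.0, 437 and 613 CPM in FL_NoUV. UV and NoUV libraries did not overlap in either genotype, the closest being FL_UV 2 and FL_NoUV 3. By edgeR's quasi-likelihood test the log2 fold change was -0.49 in cKO skin (SE 0.14, adjusted p = 0.0378) and -0.60 in FL skin (SE 0.14, adjusted p = 0.0168). The cKO call was lost in 8 of 16 fits that left out 1 library (adjusted p = 0.0502 to 0.0974; each of cKO_NoUV 2, 3 and 4, the 4 cKO_UV libraries and FL_UV 1), and the FL call without FL_NoUV 2 (adjusted p = 0.0596) and in a fit of the 2 FL groups alone (adjusted p = 0.0805).

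Over both genotypes Trp63 fell by 0.90 on the log2 scale in the whole-body experiment (SE 0.16, adjusted p = 0.00081) and by 0.54 in the keratinocyte experiment (SE 0.10, adjusted p = 0.0011), by edgeR's quasi-likelihood test. Both calls held without each library in turn, with values of -1.03 to -0.82 and -0.60 to -0.49. Without WT_NoUV 1 and WT_UV 2 together the whole-body value was -0.90. The fall in the keratinocyte experiment was smaller by 0.35 (SE 0.19), a difference that missed the threshold in a model of all 8 groups (adjusted p = 0.266; 95% interval -0.03 to 0.74).

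Itga6 pairs only with Itgb4 in the hemidesmosome, and also pairs with Itgb1 elsewhere on the cell. It had 248, 207 and 217 CPM in KO_UV, against 329.8, 326 and 316 CPM in KO_NoUV, without overlap. In WT skin it had 359, 276 and 258 CPM after UV, against 389, 400.3 and 320.2 CPM without UV, where WT_UV 1 lay above WT_NoUV 3. Itga6 fell in KO skin (log2 fold change -0.53, SE 0.15, adjusted p = 0.0237) and had a log2 fold change of -0.31 in WT skin (SE 0.15, adjusted p = 0.174), both by edgeR's quasi-likelihood test. The KO call was lost without KO_NoUV 1, KO_NoUV 2, KO_UV 2 or KO_UV 3 (adjusted p = 0.0549 to 0.0799), and a WT call appeared without WT_UV 1 (adjusted p = 0.0452).

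The keratinocyte experiment gave Itga6 304, 252, 350.3 and 229 CPM in cKO_UV, against 322, 432, 412 and 338 CPM in cKO_NoUV. It gave 250.4, 301, 362 and 203 CPM in FL_UV, against 334, 427, 403 and 340.0 CPM in FL_NoUV. The highest UV library of each genotype, replicate 3, lay inside the range of the NoUV libraries. The log2 fold changes of -0.41 in cKO (SE 0.18, adjusted p = 0.166) and -0.43 in FL (SE 0.18, adjusted p = 0.162) were not called by edgeR's quasi-likelihood test. Each was called in 1 of 23 alternatives, a replicate block, although no label says that same-numbered libraries belong together. Over both genotypes Itga6 fell by 0.42 on the log2 scale in the whole-body experiment (SE 0.11, adjusted p = 0.00739) and by 0.42 in the keratinocyte experiment (SE 0.13, adjusted p = 0.0247). The second of these calls was lost without cKO_UV 4 (adjusted p = 0.0523) or FL_NoUV 2 (adjusted p = 0.0539), and the first held without each library in turn.

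Lama3 had 91.6, 79.9 and 86.9 CPM in KO_UV, against 79.5, 63.8 and 72.8 CPM in KO_NoUV, and 90.9, 113 and 91.0 CPM in WT_UV, against 81.7, 79.4 and 80.3 CPM in WT_NoUV. The WT groups did not overlap and the KO groups nearly met, at 79.9 and 79.5 CPM. In the keratinocyte experiment Lama3 had 139, 121, 109 and 113 CPM in cKO_UV, against 127, 148, 137 and 156 CPM in cKO_NoUV, and 107, 125, 112 and 87.9 CPM in FL_UV, against 125, 144, 123 and 142 CPM in FL_NoUV. UV libraries lay mostly below NoUV libraries there, with 1 cKO_UV and 1 FL_UV library inside the NoUV range.

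Over both genotypes Lama3 rose by 0.27 on the log2 scale in the whole-body experiment (SE 0.09, adjusted p = 0.0338) and fell by 0.27 in the keratinocyte experiment (SE 0.09, adjusted p = 0.033), by edgeR's quasi-likelihood test. The UV effect was lower in the keratinocyte than in the whole-body experiment by 0.54 (SE 0.13, 95% interval -0.80 to -0.28, adjusted p = 0.00681), and this difference was called without each of the 28 libraries in turn (adjusted p = 0.00414 to 0.021). The 2 separate calls were weaker. That in the whole-body experiment was lost without each of 8 of the 12 libraries (adjusted p = 0.0568 to 0.119; all but KO_NoUV 1, WT_NoUV 1, WT_UV 1 and WT_UV 3), that in the keratinocyte experiment without 7 of the 16 (adjusted p = 0.0508 to 0.0674; cKO_NoUV 4, cKO_UV 3 and 4, FL_NoUV 2 and 4, FL_UV 1 and 4), and both without the filter on low counts (adjusted p = 0.181 and 0.0726).

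**Figure D2:**
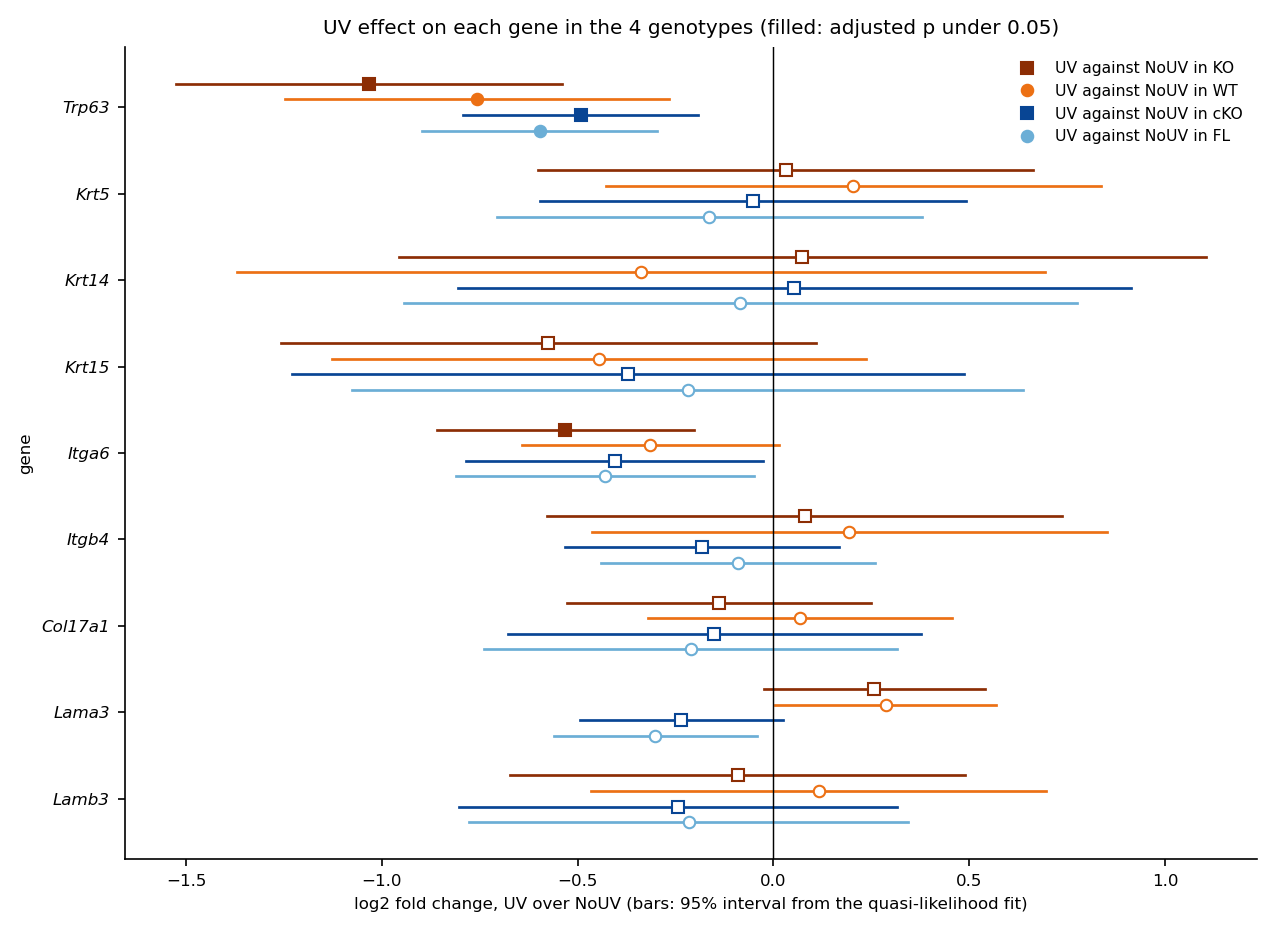
Log2 fold change of each of the 9 genes, UV over NoUV, in KO, WT, cKO and FL skin, with 95% intervals from the quasi-likelihood fit; filled symbols have an adjusted p under 0.05. Trp63 lies left of 0 in all 4 genotypes with filled symbols, Itga6 lies left of 0 with 1 filled symbol, and Lama3 lies right of 0 in KO and WT and left of 0 in cKO and FL.

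Counted within genotypes, 2 of the 9 genes were called after UV in KO skin (Trp63 and Itga6), against 22.4% of all 20365 genes tested (11.3% higher, 11.1% lower), and 1 in WT skin (Trp63), against 18.7% (8.91% higher, 9.84% lower). In cKO skin 1 was called (Trp63), against 9.72% of 19718 genes (4.57% higher, 5.15% lower), and in FL skin 1 (Trp63), against 7.62% (3.52% higher, 4.09% lower). Over both genotypes 3 of 9 were called in the whole-body experiment, against 37.3% of all genes, and 3 of 9 in the keratinocyte experiment, against 24.3%. The share of the 9 that passed was thus close to that of all genes, and the calls are results about Trp63, Itga6 and Lama3 rather than about the set. The median log2 fold change of the 9 was -0.04 in the whole-body experiment, beside 0.01 over all genes, and -0.23 in the keratinocyte experiment, beside 0.01. All 9 values lay below 0 in the latter, but that of Krt14 changed sign in 8 of 22 alternatives (-0.29 to 0.090). This agreement in sign was not tested.

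The keratins Krt5, Krt14 and Krt15 varied more between libraries than the median gene in both experiments. None of them was called after UV, although Krt15 passed in some alternatives. Krt14, the type I keratin of basal cells, had 1376, 859 and 1133 CPM in KO_UV, against 1044, 1079 and 1079 CPM in KO_NoUV. It had 1589, 3599 and 1861 CPM in WT_UV, against 6036, 1627 and 1247 CPM in WT_NoUV. UV and NoUV libraries overlapped in both genotypes, and WT_NoUV 1 and WT_UV 2 stood above the rest. The log2 fold change over both genotypes was -0.13 in the whole-body experiment (SE 0.34, adjusted p = 0.79, edgeR) and 0.39 without WT_NoUV 1.

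Krt14 in the keratinocyte experiment had 1500.4, 1262, 1918 and 732 CPM in cKO_UV, against 1088, 1493, 1841 and 792 CPM in cKO_NoUV, and 1097, 1277, 3027 and 911 CPM in FL_UV, against 904, 2155, 2254 and 1379 CPM in FL_NoUV. All 4 groups overlapped. The standard deviation of log2 CPM over the libraries of an experiment was 0.82 for Krt14 in the whole-body and 0.58 in the keratinocyte experiment, against medians over all genes of 0.34 and 0.31. Krt5, its type II partner, had 4966 CPM in WT_UV 2 and 4387 CPM in WT_NoUV 1, the highest of the 12 whole-body libraries, whose others had 1703 to 2835 CPM. Its log2 fold change after UV was 0.12 in the whole-body experiment (SE 0.21, adjusted p = 0.691, edgeR) and -0.11 in the keratinocyte experiment (SE 0.18, adjusted p = 0.703).

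In each experiment the library with most Krt14 also had most of the stress keratins. Krt6a, Krt6b, Krt16 and Krt17 summed to 615 to 1079 CPM in WT_UV and to 5919, 480.2 and 550.2 CPM in WT_NoUV, the first value being WT_NoUV 1; KO_UV libraries had 312 to 506 and KO_NoUV libraries 447 to 517 CPM. For the keratinocyte experiment the sum ran from 507 to 2076 CPM in cKO_UV, 335 to 1610.1 in cKO_NoUV, 663 to 4002 in FL_UV and 598 to 1891 in FL_NoUV, and FL_UV 3, the highest, was also the highest in Krt14. Krt6b, an induced keratin of wounded epidermis, fell after UV in WT skin by 4.66 on the log2 scale (SE 1.45, adjusted p = 0.044, edgeR), but this call was lost in 10 of 12 fits that left out 1 library (adjusted p = 0.0551 to 0.707; all but those without WT_NoUV 2 or WT_NoUV 3), with a value of -0.50 without WT_NoUV 1. Of the 4 stress keratins, 1 was called in WT skin, where 18.7% of all genes were, and 0 in KO, cKO or FL skin, where 22.4%, 9.72% and 7.62% were; at 4 genes these counts say little. The part of these keratins in the Krt14 values was not tested.

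**Figure D3:**
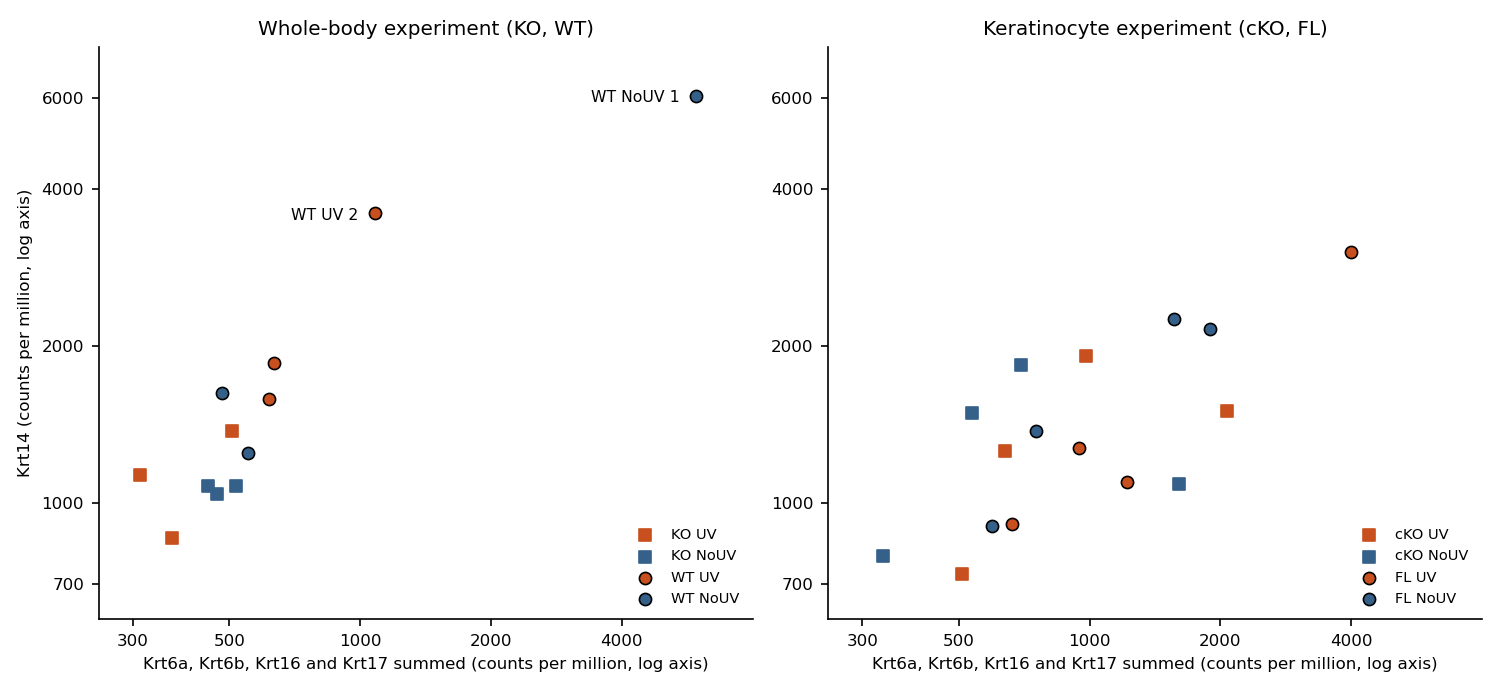
Krt14 against the summed stress keratins Krt6a, Krt6b, Krt16 and Krt17 in each library, both in CPM on log axes (squares KO and cKO, circles WT and FL; orange UV, blue NoUV). WT_NoUV 1, at 5919 CPM of stress keratins and 6036 CPM of Krt14, and WT_UV 2, at 1079 and 3599 CPM, lie outside the range of the other whole-body libraries.

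Krt15 marks basal cells and, more strongly, the stem cells of the hair follicle bulge. It had 539, 599 and 311 CPM in KO_UV, against 819.6, 785 and 554 CPM in KO_NoUV, and 491, 712 and 266 CPM in WT_UV, against 744, 697 and 561 CPM in WT_NoUV. One UV library of each genotype (KO_UV 2 and WT_UV 2) lay within the range of its NoUV group. Its log2 fold change over both genotypes of -0.51 (SE 0.22, adjusted p = 0.0903, edgeR) was not called in the whole-body experiment. Apart from the replicate block, it passed in 3 alternatives: without WT_UV 2 (-0.72, adjusted p = 0.0162), without WT_NoUV 1 and WT_UV 2 together (-0.66, adjusted p = 0.0464), and with a score of growing-follicle genes in the model (-0.67, adjusted p = 0.00668).

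Krt15 also spread widely in the keratinocyte experiment, with 239, 416, 354 and 402 CPM in cKO_UV, against 168, 517, 485 and 656 CPM in cKO_NoUV, and 202, 267, 312 and 181 CPM in FL_UV, against 108, 218, 429 and 364 CPM in FL_NoUV. The NoUV range contained every UV library in both genotypes. The log2 fold change was -0.30 over both genotypes (SE 0.28, adjusted p = 0.481, edgeR).

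The remaining anchoring genes were not called after UV. Itgb4, the beta chain whose long cytoplasmic tail binds plectin, averaged 101 ± 21.3 CPM in KO_UV and 96.0 ± 5.86 CPM in KO_NoUV (SD, n = 3 each), and 144 ± 59.0 CPM in WT_UV and 126 ± 55.5 CPM in WT_NoUV. WT_UV 2 at 210.4 and WT_NoUV 1 at 188 CPM were the highest whole-body libraries. Its log2 fold change was 0.14 in the whole-body experiment (SE 0.22, adjusted p = 0.654) and -0.14 in the keratinocyte experiment (SE 0.12, adjusted p = 0.423), by edgeR's quasi-likelihood test.

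Col17a1, the transmembrane collagen of the hemidesmosome, had a log2 fold change of -0.04 in the whole-body experiment (95% interval -0.31 to 0.24) and of -0.18 in the keratinocyte experiment (95% interval -0.55 to 0.19). Its levels ranged from 609.6 to 1006 CPM after UV and from 692 to 842 CPM without UV in the whole-body libraries. In the keratinocyte libraries they ranged from 574 to 1101 CPM after UV and from 586 to 1403 CPM without UV. Lamb3, the beta chain of the epidermal laminin, had a log2 fold change of 0.01 (95% interval -0.40 to 0.42) in the whole-body experiment and of -0.23 (95% interval -0.63 to 0.17) in the keratinocyte experiment. The keratinocyte intervals of both genes include the -0.42 of Itga6, and the whole-body intervals do not reach it.

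Ratios of partner genes within a library do not depend on how libraries are scaled, and 7 ratios in 2 experiments gave 14 tests. Itga6 over Itgb4, the chains of the hemidesmosomal integrin, was 1.998, 2.11 and 2.65 counts per count in KO_UV, against 3.28, 3.32 and 3.53 in KO_NoUV. In WT skin it was 2.90, 1.31 and 2.63 after UV, against 2.07, 3.67 and 3.98 without UV. It was 1.43, 1.43, 1.79 and 1.27 in cKO_UV, against 1.93, 1.59, 2.06 and 1.47 in cKO_NoUV, and 1.66, 1.56, 1.89 and 1.49 in FL_UV, against 2.38, 2.01, 2.11 and 1.98 in FL_NoUV. The KO and the FL groups did not overlap, and the WT groups overlapped through WT_NoUV 1 and the cKO groups through cKO_UV 3.

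The mean log2 ratio of Itga6 to Itgb4 was lower after UV by 0.56 in the whole-body experiment (difference -0.56, exact permutation p = 0.045, adjusted p = 0.315) and by 0.31 in the keratinocyte experiment (difference -0.31, exact permutation p = 0.00694, adjusted p = 0.0971), two-sided and permuted within genotype. None of the 14 ratios passed after adjustment. The whole-body design allows no exact p below 0.005. Without WT_NoUV 1 the whole-body ratios of Itga6 to Itgb4 (difference -0.71), Trp63 to Krt14 (-1.36) and Col17a1 to Itgb4 (-0.32) each reached an adjusted exact permutation p of 0.035, and without cKO_UV 3 the keratinocyte ratio of Itga6 to Itgb4 reached 0.0229 (difference -0.35). Each of these ratios passed in only 1 alternative, of 13 in the whole-body and 17 in the keratinocyte experiment. WT_NoUV 1 was also the library with the most Krt14.

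**Figure D4:**
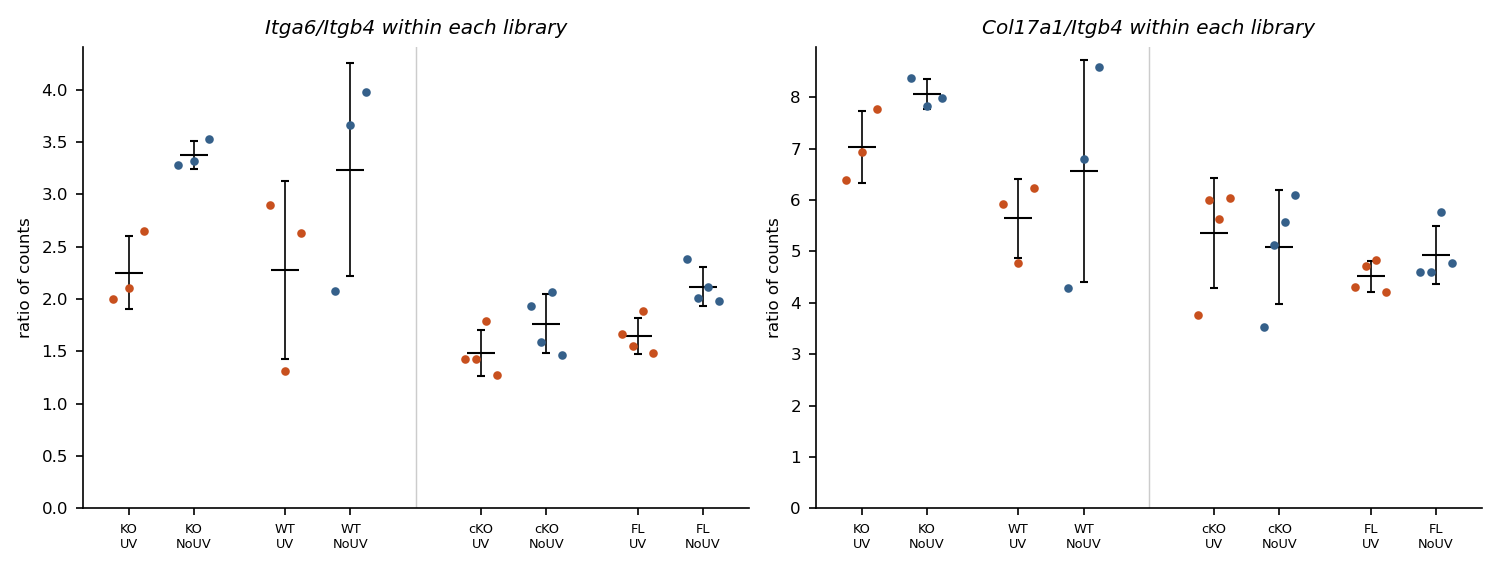
Ratio of Itga6 to Itgb4 counts and of Col17a1 to Itgb4 counts in every library, on linear axes from 0 (orange UV, blue NoUV; bars are mean and SD). The Itga6 to Itgb4 ratio of KO_UV, 1.998 to 2.65, lies below that of KO_NoUV, 3.28 to 3.53, and that of FL_UV, 1.49 to 1.89, below that of FL_NoUV, 1.98 to 2.38.

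The second question was whether loss of Vsir changed these genes. None of the 9 genes was called between genotypes, with or without UV, by edgeR's quasi-likelihood test or by DESeq2, in either experiment. By edgeR, all genes called made up 0.00982% (2 genes) in KO against WT without UV, 0.0442% (9 genes; 0.0393% higher, 0.00491% lower) after UV, and 0% in both comparisons of cKO with FL. DESeq2 called 584 genes in KO against WT without UV and 444 after UV, and 7 and 2 in cKO against FL. At an unadjusted p under 0.05 edgeR gave 3219 and 3071 genes in KO against WT, without and after UV, and 928 and 1046 in cKO against FL.

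Krt14 and Krt5 had the largest values between KO and WT. The log2 fold change of Krt14 in KO over WT was -1.07 after UV (SE 0.48, unadjusted p = 0.0457, adjusted p = 0.326, edgeR) and -1.48 without UV (SE 0.49, unadjusted p = 0.00954, adjusted p = 0.204). After UV the KO libraries, at 859 to 1376 CPM, lay below the WT libraries, at 1589 to 3599 CPM, and without UV they lay at 1044 to 1079 CPM, below 1247 to 6036 CPM. Leaving out WT_NoUV 1 brought the value without UV to -0.43, and leaving out WT_UV 2 as well brought that after UV to -0.62. Krt5 had a log2 fold change of -0.80 after UV (SE 0.29, adjusted p = 0.267) and -0.63 without UV (SE 0.29, adjusted p = 0.318), or -0.44 and -0.24 without the 2 libraries. The suprabasal list, keratins and barrier genes of the upper layers, summed to 12629.7 to 19984 CPM in KO_UV against 21624 to 32822 CPM in WT_UV; its part in the Krt14 and Krt5 values was not tested.

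Between cKO and FL skin, Krt15 had the largest value, 0.55 after UV (SE 0.40, adjusted p = 0.872, edgeR) and 0.71 without UV (SE 0.40, adjusted p = 0.923). Lamb3 followed with 0.42 after UV (SE 0.26, adjusted p = 0.868) and 0.45 without UV (SE 0.26, adjusted p = 0.923). For Krt14, whose promoter drives the Cre of cKO mice, the log2 fold change in cKO over FL was -0.22 after UV (95% interval -1.08 to 0.64) and -0.36 without UV (95% interval -1.22 to 0.50).

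The UV effects themselves gave no call between genotypes for the 9 genes or any other gene (0% of genes), with 0 genes called in each experiment by edgeR and 313 and 248 at an unadjusted p under 0.05. For Trp63 the UV effect in KO minus WT was -0.28 (95% interval -0.97 to 0.41), and in cKO minus FL 0.11 (95% interval -0.32 to 0.53). A p that misses the threshold does not show equal responses. Between experiments 1 of the 9 genes, Lama3, was called in the difference of UV effects, against 9.09% of 21851 genes tested (3.98% higher and 5.11% lower).

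Around the hemidesmosome, 16 further genes were read as partners, most of them of the plectin, integrin, laminin, collagen and nidogen families, with Cd151, Fermt1 and Hspg2 besides. In the whole-body experiment 5 rose (18.3% of all genes were called higher) and 1 fell (19% were called lower), and the median log2 fold change of the 16 was 0.16, beside 0.01 over all genes. Lama5, the alpha chain of the broad basement membrane laminins, rose by 1.01 on the log2 scale (SE 0.18, adjusted p = 0.000669). Col7a1, the collagen of the fibrils that anchor the basement membrane to the dermis, rose by 0.99 (SE 0.18, adjusted p = 0.00076), Nid1, which links laminin to collagen IV, by 0.76 (SE 0.12, adjusted p = 0.000334) and Lamb1 by 0.37 (SE 0.09, adjusted p = 0.00427). Fermt1, which encodes kindlin-1, an activator of integrins in basal keratinocytes, fell by 0.41 (SE 0.11, adjusted p = 0.00909); it is named as the one gene of the list that fell.

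In the keratinocyte experiment 2 of the 16 partners rose (12% of all genes were called higher) and 1 fell (12.3% were called lower), with a median of 0.20 beside 0.01. Nid1 rose by 0.75 (SE 0.16, adjusted p = 0.00265) and Itgb1, the beta chain of most other integrins, by 0.27 (SE 0.08, adjusted p = 0.0273), and this call was lost without the filter on low counts (adjusted p = 0.121) and without each of 6 of the 16 libraries (adjusted p = 0.0503 to 0.0646; cKO_NoUV 1 and 3, cKO_UV 2, FL_NoUV 2, 3 and 4). Fermt1 fell by 0.81 (SE 0.11, adjusted p = 6.99e-05). Col7a1, at 0.19, was not called there, and its UV effect differed between the experiments by -0.80 (SE 0.22, adjusted p = 0.0216, keratinocyte minus whole-body, edgeR); without WT_UV 2 the difference was -0.58 (adjusted p = 0.055). Plectin (Plec), with values of 0.13 in the whole-body and 0.08 in the keratinocyte experiment, and dystonin (Dst), with 0.04 and -0.07, were called in neither.

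Fibroblasts, endothelium and muscle also make several of these basement membrane genes, and the summed levels of such cells' genes differed between UV and NoUV libraries in some genotypes. Fibroblast genes summed to 11808 to 15302 CPM in KO_UV and 7999 to 9556 CPM in KO_NoUV, to 7065 to 9612 CPM in WT_UV and 5793 to 9445 CPM in WT_NoUV, and to 7608 to 10686 CPM in FL_UV and 4057 to 6697 CPM in FL_NoUV. In cKO skin the fibroblast sums overlapped, at 4316 to 9199 CPM in cKO_UV and 5061 to 6118 CPM in cKO_NoUV. Endothelial genes had lower sums after UV in the whole-body experiment, with means of 195 CPM in KO_UV and 250.3 in KO_NoUV, and of 168 CPM in WT_UV and 213 in WT_NoUV. In the keratinocyte experiment the endothelial means were 221 CPM in cKO_UV and 189 in cKO_NoUV, and 185 CPM in FL_UV and 173 in FL_NoUV. The part of these cells in the partner values was not tested.

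Several genes linked to p63 in epidermis also fell after UV. Of 12 such genes, 0 rose and 8 fell in the whole-body experiment, where 19% of all genes were called lower, with a median of -0.63 beside 0.01. Tfap2a, an AP-2 factor of keratinocytes, fell by 1.35 (SE 0.11, adjusted p = 3.33e-06), Grhl3, a factor of barrier formation, by 1.34 (SE 0.17, adjusted p = 6.9e-05), Zfp750, a p63 target that promotes differentiation, by 1.21 (SE 0.12, adjusted p = 1.44e-05) and Bnc1, a basal keratinocyte zinc finger protein, by 1.10 (SE 0.14, adjusted p = 7.98e-05), on the log2 scale by edgeR. In the keratinocyte experiment 0 rose and 4 fell, where 12.3% of all genes were called lower, with a median of -0.26 beside 0.01. These were Fgfr2, the receptor for keratinocyte growth factor (-0.74, SE 0.13, adjusted p = 0.000605), Jag2, a Notch ligand of basal cells (-0.48, SE 0.10, adjusted p = 0.00317), Zfp750 (-0.47, SE 0.11, adjusted p = 0.00469) and Grhl3 (-0.80, SE 0.20, adjusted p = 0.00821). The UV effects on Tfap2a and Zfp750 were higher, that is less negative, in the keratinocyte than in the whole-body experiment by 1.05 (SE 0.19, adjusted p = 0.000911) and 0.73 (SE 0.16, adjusted p = 0.0053). This list was chosen with earlier results of these data known, so its counts are not independent of them. The part of Trp63 in the values of these genes was not tested.

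**Figure D5:**
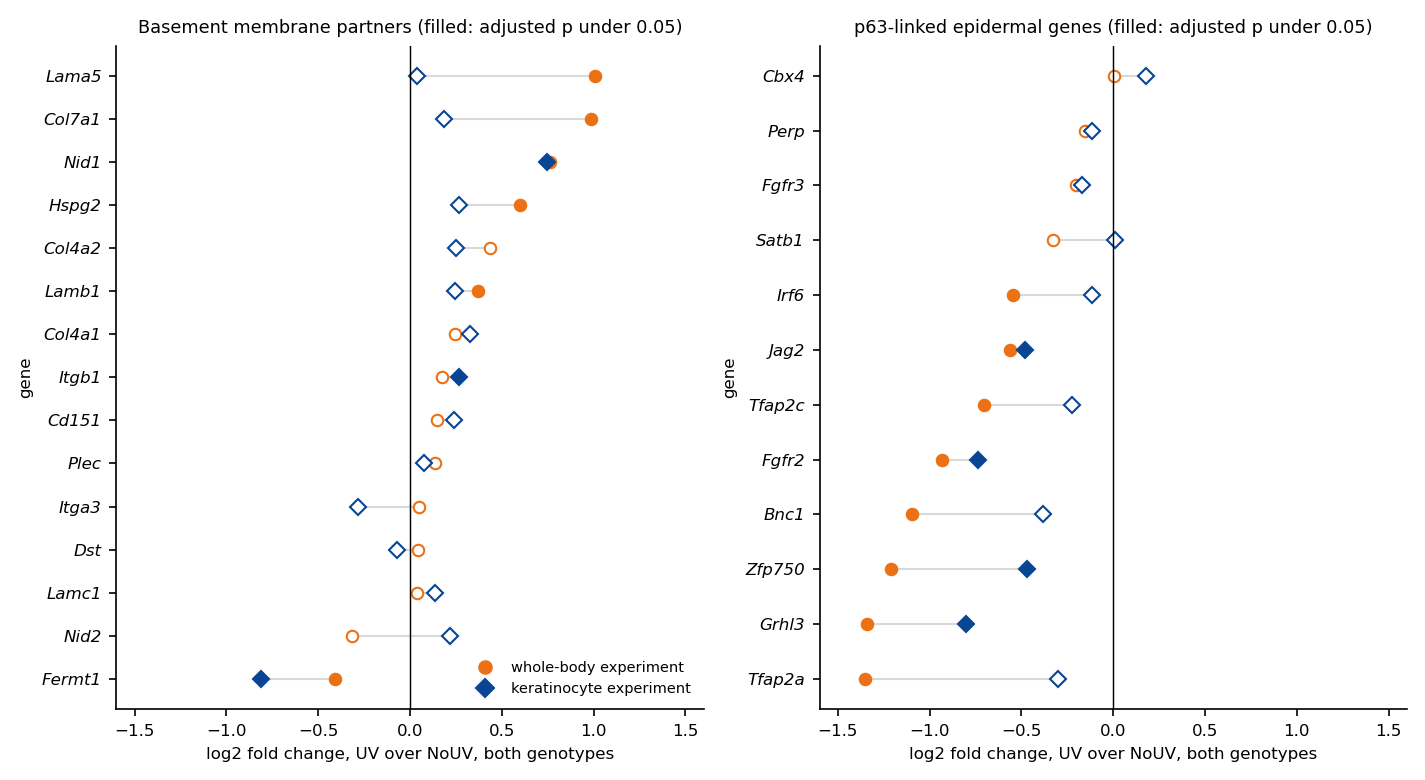
Log2 fold change, UV over NoUV across both genotypes, of basement membrane partners and 12 p63-linked genes, with circles for the whole-body and diamonds for the keratinocyte experiment; filled symbols have an adjusted p under 0.05. Lama5, Col7a1 and Nid1 stand near 1.01, 0.99 and 0.76 in the whole-body experiment, and the p63-linked genes that passed the test all lie left of 0.

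Of 10 genes of follicle stem cells and outer root sheath, compartments that also express Trp63, Krt5, Krt14 and Krt15, 7 fell and 1 rose in the whole-body experiment (19% of all genes were called lower and 18.3% higher), and 4 fell and 1 rose in the keratinocyte experiment (12.3% lower and 12% higher). Lgr5, a marker of cycling follicle stem cells, fell by 2.64 in the whole-body (adjusted p = 4.23e-06) and by 1.34 in the keratinocyte experiment (adjusted p = 0.00451), and Nfatc1, a bulge factor, fell by 1.00 (adjusted p = 7.19e-05) and by 0.68 (adjusted p = 0.00267), by edgeR. Tcf7l1, another factor of these cells, fell by 1.19 (adjusted p = 0.000135) and by 0.81 (adjusted p = 0.00148). Cd34, another gene of this list, went the other way in the whole-body experiment. By edgeR it rose in KO skin (0.53, adjusted p = 0.0477) and had 0.29 in WT skin (adjusted p = 0.297, not called). Of 20 suprabasal genes, 8 fell in the whole-body experiment, where 19% of all genes were called lower, and 1 in the keratinocyte experiment, a smaller share than the 12.3% of all genes, and none rose; Ovol1, a factor of early differentiation, fell by 1.25 (adjusted p = 0.000685) and by 0.64 (adjusted p = 0.0258), the keratinocyte call being lost without cKO_NoUV 3, cKO_UV 2, cKO_UV 4 or FL_UV 4 (adjusted p = 0.0508 to 0.0566). The part of these compartments in the values of the 9 genes was not tested.

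Other measures varied between libraries as well. Sums of growing-follicle genes, which mark hair growth, overlapped between UV and NoUV libraries in the keratinocyte experiment. They were 26.1 to 387 CPM in cKO_UV and 30.7 to 10217 CPM in cKO_NoUV, and 31.0 to 2711 CPM in FL_UV and 27.9 to 6472 CPM in FL_NoUV. The cKO_NoUV mean was 2593 ± 5083 CPM (SD, n = 4), an SD larger than the mean. Skeletal muscle genes, 7 of 10 of which rose after UV in the keratinocyte experiment (12% of all genes were called higher), summed to 21592 to 66110.3 CPM in cKO_UV and 10704 to 39956 CPM in cKO_NoUV, and to 15939 to 41576 CPM in FL_UV and 12306 to 20606 CPM in FL_NoUV. The part of muscle content in the values of the 9 genes was not tested. The body-position gene Hoxc10, picked after its values were seen, had 137 to 272 counts in every UV library of the whole-body experiment and at most 2 in every NoUV library, so that skin site and UV cannot be told apart there. In the keratinocyte experiment it had 0 to 2 counts in cKO_UV and 2 to 115 in cKO_NoUV, and 0 to 128 in FL_UV and 4 to 146 in FL_NoUV. Its median in cKO_NoUV was 3.77 CPM, against at most 0.082 CPM in cKO_UV, so site and UV were not cleanly separate in cKO skin. The part of skin site in the UV values was not tested.

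Among themselves the 9 genes fell into neighbours of unequal closeness. Likeness was taken as the root mean square (RMS) difference of log2 CPM, centred within each experiment, over the 28 libraries. Genes of the same library share its depth and scaling, so they are not independent in this measure. Col17a1 and Lamb3 were the closest pair (RMS difference 0.171), followed by Itgb4 and Lamb3 (0.232) and Itgb4 and Lama3 (0.265). Trp63 and Krt14 were the farthest (0.862), and Trp63 was closest to Itga6 (0.321). Between the 9 genes this measure was not matched for variance, so it grows with the spread of a gene. In the whole-body experiment the SD of log2 CPM was 0.82 for Krt14, 0.20 for Lama3 and 0.19 for Col17a1. The laminin partners Lama3 and Lamb3 stood at 0.353 and the keratin partners Krt5 and Krt14 at 0.337.

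Among other genes of like variance, those closest to the mean profile of the 9 were Myo18a (0.126), Tmem63a (0.127), Mink1 (0.133), Dffa (0.141) and Capn1 (0.142), where the median over 5291 candidates was 0.369. For single genes the closest were Rfx7 and Zfp65 to Trp63 (0.145 and 0.158), Aldh3b2 and Urod to Krt5 (0.176 and 0.190), Lgals7 and Sult2b1 to Krt14 (0.193 and 0.324), and Cd82 and Slco2b1 to Krt15 (0.363 and 0.368). Atp1b3 and Endod1 were closest to Itga6 (0.129 and 0.144), Trappc9 and Notch3 to Itgb4 (0.163 and 0.167), Rab3d and Clstn1 to Col17a1 (0.147 and 0.151), Rmdn3 and Mapkbp1 to Lama3 (0.126 and 0.144), and Slc6a9 and Apoe to Lamb3 (0.167 and 0.202).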

How the data were processed

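RNA of whole skin was measured by sequencing in 28 mouse libraries. Per the labels' protocols, libraries were stranded and depleted of ribosomal RNA. Per the submitters' processing notes, cutadapt 4.6, HISAT2 2.1.0 and featureCounts of Subread were used, with GRCm38 named as the build. The deposited values are raw counts per gene, not normalized. The positions in the whole-body file match GRCm38; those in the keratinocyte file do not, so genes were joined by Ensembl ID and only positions of the first are given.

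Counts were tested in edgeR 4.0.16 (R 4.3.3) with TMM scaling, its expression filter, and robust quasi-likelihood fits of a model with a mean for each group. Adjustment was after Benjamini and Hochberg across every tested gene, and a gene is called at an adjusted p under 0.05. The experiments carry different batch dates and were fitted apart; their UV effects were compared in 1 model of the 8 groups on genes in both files. Log2 ratios (0.5 added to each count) were tested by exact permutation within genotype. No 2 libraries of a group agreed within counting noise (chi-square over degrees of freedom at least 26.4). The tests were tried on simulated data. The design text calls the replicates biological; intervals come from the fit.

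The 9 genes, the lists and the tests were chosen with earlier results of these data known. Named beside the 9 are Vsir, the genes nearest in profile, and up to 4 called genes per list. The latter were mostly those with the smallest p, but Lhx2 of the follicle list was passed over. Plec, Dst, Hoxc10, Cd34 and, in the whole-body experiment, Fermt1 were named outside this rule. Alternatives were DESeq2 1.42.0, RLE scaling, no filter, only the groups compared, a replicate block, a growing-follicle score, and each library left out; leaving out 2 libraries together was added after the data were seen. Values of 1 partner gene, and of the ratio that holds it, are not reported here, but they entered the counts and adjustments.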

Additional observations from a re-analysis of the deposited data

Results flagged for a closer look

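The UV effect on 4 of the named genes differed between the experiments by a test of the difference in a model of all 8 groups (keratinocyte minus whole-body, edgeR's quasi-likelihood test). For Lama3 the difference was -0.54, for Col7a1 -0.80, for Tfap2a 1.05 and for Zfp750 0.73 on the log2 scale. The experiments differ in mouse lines and batch label. They also differ in how Hoxc10, read above as a mark of skin site, followed UV. These differences cannot be told apart here.

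In the groups of 4 libraries, 1 library stood apart from the other 3 by Dixon's 95% criterion in 2 of 36 tests of a gene in a group, where chance marks about 1 in 20. Col17a1 had 800.0 CPM in cKO_UV 1, against 1057 to 1101 CPM in the other cKO_UV libraries. Trp63 had 436.9 CPM in FL_NoUV 3, against 613 to 640.0 CPM in the other FL_NoUV libraries.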

How the results depend on the processing

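Of the 9 genes, the number called after UV was 2 in cKO and 2 in FL with a replicate block (Trp63, and Itga6 at adjusted p = 0.0486 and 0.035; 1 each without it), and 0 in FL and 0 in WT in fits of only the groups compared (1 each as reported). In KO it was 3 with the follicle score and 3 with the block, where Krt15 was added (-0.73 and -0.61, adjusted p = 0.0357 and 0.0407), against 2 as reported, and over both whole-body genotypes it was 4 under these settings and without WT_NoUV 1 and WT_UV 2, again with Krt15, against 3. Leaving out 1 library at a time gave 0 to 1 in cKO, 0 to 1 in FL, 1 to 2 in KO, 0 to 2 in WT, 1 to 3 over both genotypes of the keratinocyte and 2 to 3 of the whole-body experiment. No label says that same-numbered libraries share an animal, litter or day, although in the keratinocyte experiment replicate 1, replicates 2 and 3, and replicate 4 carry separate runs of column numbers in all groups. Their deviations correlated at -0.54 to 0.43 in the whole-body experiment (8 of 12 libraries best with their own number) and -0.27 to 0.68 in the keratinocyte experiment (11 of 16). The replicate block also called Krt15 in the whole-body experiment (-0.58, adjusted p = 0.00637, edgeR). Values near 0 changed sign: Krt14 over both whole-body genotypes was 0.17 without WT_NoUV 1 and WT_UV 2, and Lamb3 was -0.092 without them, -0.093 with the follicle score, -0.030 without the filter and -0.0015 with the replicate block. Without single libraries the UV values ranged from -0.17 to 0.020 (Col17a1), -0.077 to 0.34 (Itgb4), -0.38 to 0.39 (Krt14), -0.089 to 0.31 (Krt5) and -0.23 to 0.12 (Lamb3) for whole-body libraries, and from -0.29 to 0.090 (Krt14) for keratinocyte libraries. Krt14 in cKO over FL after UV ranged from -0.45 to 0.29, and the UV effect on Trp63 in cKO minus FL from -0.0078 to 0.22. The log2 ratios ranged, for the whole-body experiment, from -0.32 to -0.074 (Col17a1 to Itgb4), -0.71 to -0.38 (Itga6 to Itgb4), -0.057 to 0.23 (Krt5 to Krt14) and -1.36 to -0.60 (Trp63 to Krt14). For the keratinocyte experiment they ranged from -0.11 to 0.058 (Col17a1 to Itgb4), -0.35 to -0.27 (Itga6 to Itgb4), -0.28 to 0.13 (Krt15 to Krt14), -0.15 to 0.040 (Krt5 to Krt14) and -0.19 to 0.025 (Lama3 to Lamb3). DESeq2 called more genes of all kinds: 444 after UV and 584 without UV in KO against WT (edgeR 9 and 2), 2 and 7 in cKO against FL (0 and 0), and, after UV, 2984 in cKO (1917) and 2443 in FL (1502). With the replicate block, KO against WT gave 31 after UV and 22 without. Fits of only the groups compared called 7493 genes after UV in KO (4552), 1288 in WT (3817) and 953 in FL (1502). The cause of these differences was not tested.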
